A study of Mus musculus with 18 samples.

Results

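Microglia, the resident macrophages of the brain, were followed through 38 genes that mark or equip them, taken as a list of symbols and matched to the gene identifiers of the count table. All 38 symbols matched among 55401 identifiers, and 37 of the 38 genes had enough counts to be tested among 18994 genes. The tissue was the BNST, a limbic forebrain nucleus beside the lateral ventricle, and the prelimbic mPFC of male wild-type C57BL/6 mice aged 6 to 8 weeks. Formalin mice were killed 24 h after formalin was injected into a hind paw, a model of acute pain. CFA mice were killed 72 h after injection of complete Freund's adjuvant, a model of persistent pain. Control mice received neither agent. The methods describe them as mice without either injection, whereas the figure legends of the study call them sham-treated. Whether they received any injection is thus not clear. Each of the 6 groups held 3 libraries, which the methods describe as 3 brains of each treatment with both regions dissected from each brain. The p-values thus rest on the spread between libraries of a group, which holds differences between mice and in dissection. The main model treated libraries of the 2 regions as independent and did not pair them by mouse. The column tags hold a number that was read here as an animal number, a meaning the methods do not state. Control libraries of the BNST carry numbers 1, 2 and 4, and those of the mPFC carry 2, 3 and 4. If the numbers mark mice, 4 control mice were used and 2 of them gave both regions, unlike the description in the methods. Formalin and CFA mice were killed at unlike times, so agent and time cannot be told apart. Every library is RNA of whole dissected tissue, so fewer microglia and less RNA per microglial cell cannot be told apart either.

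Microglia survive on signals through the CSF1 receptor, whose ligands CSF1 and IL-34 come largely from neurons and other glia, and TGF-beta signalling keeps them in their homeostatic state. In that state they carry sensors for nucleotides, chemokines and lipids (P2RY12, P2RY13, CX3CR1, GPR34), sialic-acid-binding and Fc-type receptors, and adaptors such as TYROBP that pass activating signals on to kinases. They also make the C1q chains that tag synapses and debris, and lysosomal proteases such as cathepsin S. When microglia respond to injury or disease, homeostatic sensors typically become less abundant and lysosomal, complement and lipid-handling genes more abundant. In pain research, microglial responses are best known from the dorsal horn of the spinal cord.

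The libraries held 14781315 to 23408503 counts. Levels are given as CPM (counts scaled to the TMM-adjusted library size) or, between genes, as TPM (which also divides by exon length). Fold changes are log2 values with their standard error (SE) from 1 edgeR quasi-likelihood model of all 18 libraries, and a gene passed at an adjusted p under 0.05 over all 18994 genes with an absolute log2 fold change above 0.5. Several libraries stood apart. Summed CPM of 8 choroid plexus markers was 2892 to 8730.1 in BNST formalin libraries, 177 to 17593 in BNST CFA libraries (highest in replicate 2) and 34.1 to 733 in BNST control libraries. Summed CPM of 6 striatal neuron markers was 837 to 1183, 134 to 473 and 920.2 to 2189 in the same groups, so markers of neighbouring tissue differed between the BNST groups. Summed CPM of 5 erythroid markers was 23.8 in BNST formalin replicate 1 and 18.2 in mPFC formalin replicate 1, and at most 4.71 in any other library. Among the microglial genes, BNST control replicate 3 was the lowest BNST library for 16 of 37 and mPFC control replicate 1 the lowest mPFC library for 16 of 37, whereas mPFC formalin replicates 3 and 2 were the highest mPFC libraries for 14 and 11. By the lane tags, 15 libraries ran in lane 2, while lane 1 held BNST control replicates 1 and 2 and lane 3 held BNST formalin replicate 1.

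The microglial genes spanned a wide range of levels. Cathepsin S (Ctss) had the highest mean over the 18 libraries, 127 TPM, followed by the complement chains C1qa at 118 TPM and C1qb at 107 TPM, and by Csf1r at 67.7 TPM. The purinergic receptor P2ry12 averaged 51.1 TPM and the fractalkine receptor Cx3cr1 44.9 TPM, above the homeostatic surface markers Fcrls at 34 TPM and Tmem119 at 33.4 TPM. The transcription factors were lower, with Sall1 at 21.7 TPM, Spi1 (PU.1) at 4.15 TPM, Irf8 at 2.897 TPM and Ikzf1 at 2.898 TPM. At the low end stood Cd180 at 1.84 TPM, Ptprc (CD45) at 0.89 TPM and Pld4 at 0.679 TPM. Defining markers of microglia were thus present in every library of both regions. Summed CPM of 10 border-associated macrophage markers was 8.603 to 11.9 in BNST formalin libraries, 7.61 to 11.7 in BNST CFA libraries and 8.96 to 14.7 in BNST control libraries, and 8.01 to 12.4, 7.86 to 12.2 and 9.19 to 13.5 in the mPFC groups in the same order. In CFA over control in the BNST, where 11.9% of all genes passed, 1 of the 6 of these markers that could be tested was higher and 1 lower. The part of these macrophage markers in the results was not tested. The highest sum of 8 neutrophil markers in any library was 2.51 CPM. Of 8 monocyte markers only Nr4a1 and Ace, which neurons and other cells also express, had enough counts to be tested, while Ccr2 and Ly6c2 did not. The monocyte sum was 465 CPM in BNST CFA replicate 2, the library highest in choroid plexus markers, and 52.8 and 54.8 CPM in the other BNST CFA libraries. It was 116 to 146 CPM in mPFC formalin libraries against 197 to 218 CPM in mPFC control libraries. Nr4a1 was lower in the BNST after CFA and in the mPFC after formalin, and the part of these markers in the microglial values was not tested.

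**Figure D1:**
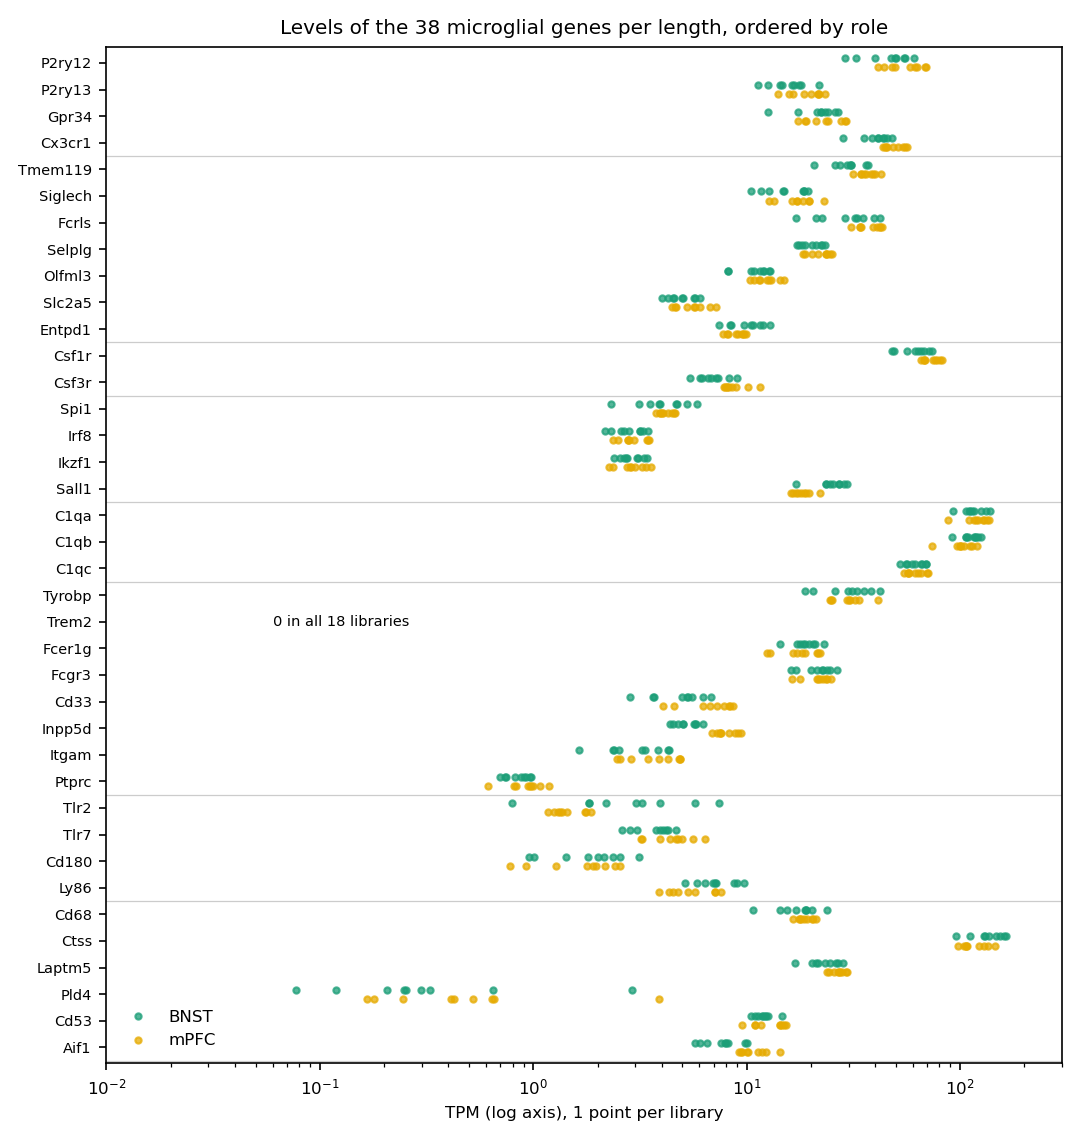
TPM of the 38 microglial genes on a log axis, ordered by role from top to bottom, with 1 point for each of the 9 BNST and 9 mPFC libraries. Ctss and the C1q genes lie at the right, Ptprc and Pld4 at the left, 2 libraries stand far from the rest for Pld4, and Trem2 has no point because it is at 0 in all 18 libraries.

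Trem2, the lipid-sensing receptor that signals through TYROBP, had 0 counts in all 18 libraries, and this was not read as its level. It lies at chr17:48346401-48354147 (GRCm38) in a run of 15 consecutive protein-coding genes, between Foxp4 and Unc5cl, that all had 0 counts. The run includes Nfya and Oard1, singled out after their values were seen, which are used by nearly all cell types. Its partner Tyrobp, which lies on chromosome 7, was counted in every library. Pld4, an endolysosomal exonuclease, had 1 to 11 counts in 16 libraries and 55 counts in each of BNST CFA replicate 3 and mPFC formalin replicate 2, and did not pass. In the mPFC it had 11, 55 and 6 counts after formalin, 10, 9 and 6 after CFA and 3, 3 and 4 in controls. Both mPFC pain groups lay above all controls, at 3.08 ± 1.10 (SE, adjusted p = 0.221) after formalin and 1.56 ± 1.24 (SE, adjusted p = 0.644) after CFA, the highest fold changes of the 37 genes in these comparisons.

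Some of the genes are neighbours. C1qb, C1qc and C1qa lie in this order on the reverse strand within 18675 bases of chromosome 4, P2ry13 and P2ry12 lie 5389 bases apart on chromosome 3, and Tmem119 and Selplg lie 18019 bases apart on chromosome 5. Exon overlap with other genes limits a few counts, because the strand setting of the counting is not stated. Cd180 shares 182 of its 4509 exon bases with Mast4 on the other strand, Csf1r shares 873 of 5774 with Hmgxb3, and P2ry12 shares 9 of 2546 with Med12l. Itgam shares 3450 of its 5024 exon bases, on its own strand, with Gm49368, which received 1 count in all 18 libraries, so the TPM of Itgam may be too low.

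The summed level of the 38 genes was similar in the 3 BNST groups and highest after formalin in the mPFC. It was 604 ± 30.9 CPM in BNST formalin libraries, 566 ± 41.7 CPM in BNST CFA libraries and 577 ± 70.6 CPM in BNST control libraries (SD, n = 3 each). In the mPFC it was 737 ± 36.6 CPM after formalin, 625 ± 21.03 CPM after CFA and 637 ± 64.9 CPM in controls. The BNST groups overlapped one another. In the mPFC every formalin library lay above every CFA and every control library in these CPM. By raw totals and TPM the lowest formalin library lay below the highest control library, at 660.6 against 687 CPM and 1001 against 1018 TPM. In TPM the lowest formalin library also lay below the highest CFA library, which was at 1012 TPM.

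**Figure D2:**
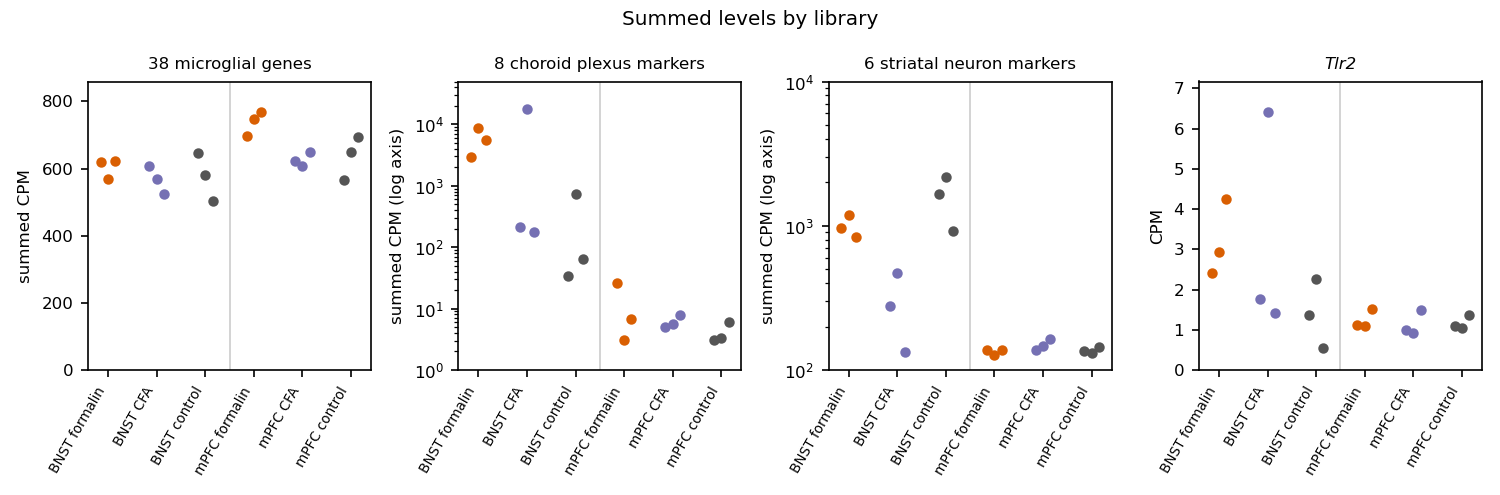
Summed CPM of the 38 microglial genes, of 8 choroid plexus markers and of 6 striatal neuron markers (log axes for both marker lists), and CPM of Tlr2, with 1 point per library in 6 groups. The microglial sum stays between 504.5 and 767 CPM, while the choroid plexus sum runs from 177 to 17593 CPM over the BNST CFA libraries, and the library highest in it is also highest in Tlr2.

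In the BNST after CFA, 4 of the 37 microglial genes passed against controls, 10.8%, where 11.9% of all 18994 genes passed. Ctss rose, and the scavenger-type receptor Fcrls, the lectin Cd33 and the Toll-like receptor relative Cd180 fell. In the mPFC after CFA, Cd180 alone passed of the 37, and it fell, where 0.632% of all genes passed. Between the pain models, the formalin libraries of the BNST had 4 genes higher than the CFA libraries and none lower (P2ry12, Fcrls, Cd33 and the integrin Itgam), against 6.87% of all genes in either direction. Those of the mPFC had 5 genes higher and none lower (P2ry12, Gpr34, Cd33, Itgam and Cd180), against 0.932% of all genes. The comparisons share libraries, since both pain models are set against the same controls. Among other cells in the mPFC, 3 of 8 oligodendrocyte markers and 1 of 8 endothelial markers were lower after CFA than in controls, and their part in the microglial values was not tested.

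**Figure D3:**
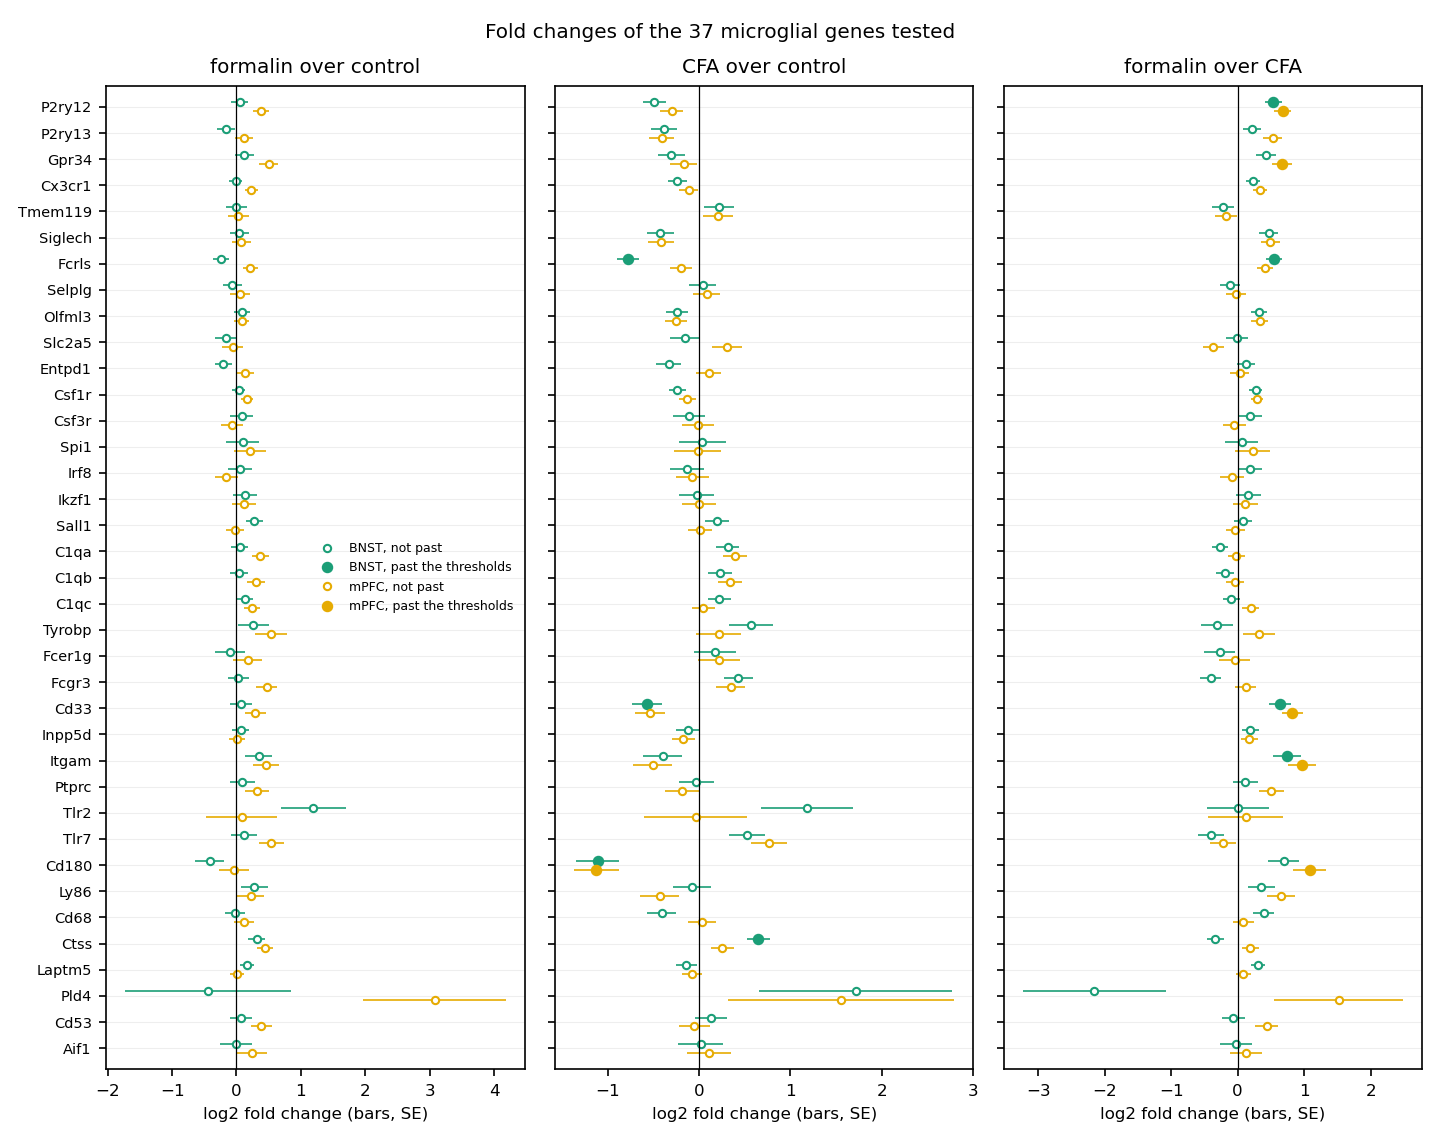
Log2 fold changes (points) with their SE (bars) of the 37 microglial genes tested, ordered by role, for formalin over control, CFA over control and formalin over CFA in BNST and mPFC. Filled points passed the thresholds. Cd180, Cd33, Fcrls, Siglech, P2ry12 and Itgam lie left of 0 after CFA in both regions, and Ctss, Tlr7, Fcgr3 and the C1q genes lie right of it.

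After formalin, none of the 37 genes passed against controls in either region by edgeR or by DESeq2, where 0.3% of all genes passed in the BNST and 0.269% in the mPFC. In the BNST, 2 of 37 had an unadjusted p under 0.05, against 19.6% of all genes, and the lowest adjusted p was 0.192, of Ctss. In the mPFC, 12 of 37 had an unadjusted p under 0.05, against 14.1% of all genes, and 32 of 37 had a positive fold change, with a median of 0.21, where 49.05% of all genes did. For 14 of the 37 all 3 mPFC formalin libraries lay above all 3 control libraries, against 13% of all genes. The lowest adjusted p among them was again that of Ctss, 0.113, so no single gene rose by the thresholds. mPFC control replicate 1, the lowest mPFC library for 16 of the genes, is among these controls.

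Of the nucleotide, lipid and chemokine receptors, P2ry12 was higher after formalin than after CFA in both regions and Gpr34 in the mPFC. P2RY12 senses ADP and steers microglial processes towards sites of damage. P2ry12 had 38.1, 31.5 and 31.2 CPM in BNST formalin libraries, 27.04, 23.6 and 18.9 CPM in BNST CFA libraries and 34.4, 34.9 and 28.1 CPM in BNST control libraries. It had 47.97, 44.8 and 50.4 CPM in mPFC formalin libraries, 28.01, 29.5 and 32.1 CPM in mPFC CFA libraries and 31.9, 38.2 and 39.95 CPM in mPFC control libraries. In both regions every formalin library lay above every CFA library, with a log2 difference of 0.53 ± 0.13 (SE, adjusted p = 0.0102) in the BNST and 0.68 ± 0.13 (SE, adjusted p = 0.0113) in the mPFC. Against controls, P2ry12 after CFA was at −0.49 ± 0.13 (SE, adjusted p = 0.0112) in the BNST, just under the minimum fold change. In the mPFC P2ry12 after CFA was at −0.30 ± 0.13 (SE, adjusted p = 0.299), and the CFA and control libraries overlapped. The mPFC formalin libraries lay above all mPFC controls, at a mean of 47.7 against 36.7 CPM, without passing. Med12l, which overlaps P2ry12 by 9 bases, was at −0.30 ± 0.09 (SE) in CFA over control in the BNST, the same sign as P2ry12, and was at −0.07 ± 0.09 in formalin over CFA in the mPFC.

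Gpr34, a receptor for lysophosphatidylserine, passed only between the pain models in the mPFC. It had 16.5, 17.05 and 16.6 CPM in mPFC formalin libraries, 11.8, 9.53 and 10.3 CPM in mPFC CFA libraries and 10.03, 12.9 and 12.5 CPM in mPFC control libraries. The formalin libraries also lay above all controls, without passing, while CFA and control libraries overlapped. Formalin lay above CFA without overlap by 0.66 ± 0.15 (SE, adjusted p = 0.0285). In the BNST the same difference was 0.42 ± 0.15 (SE, adjusted p = 0.05898), and the 6 libraries overlapped. P2ry13, another ADP receptor, and Cx3cr1, the receptor for neuronal fractalkine, did not pass by edgeR in any comparison. P2ry13 was at 0.53 ± 0.14 (SE, adjusted p = 0.05997) in formalin over CFA in the mPFC, where the groups did not overlap, and passed there by DESeq2. In CFA over control P2ry13 was at −0.38 in the BNST and −0.41 in the mPFC, and Cx3cr1 at −0.24 in the BNST and −0.11 in the mPFC, on the log2 scale.

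**Figure D4:**
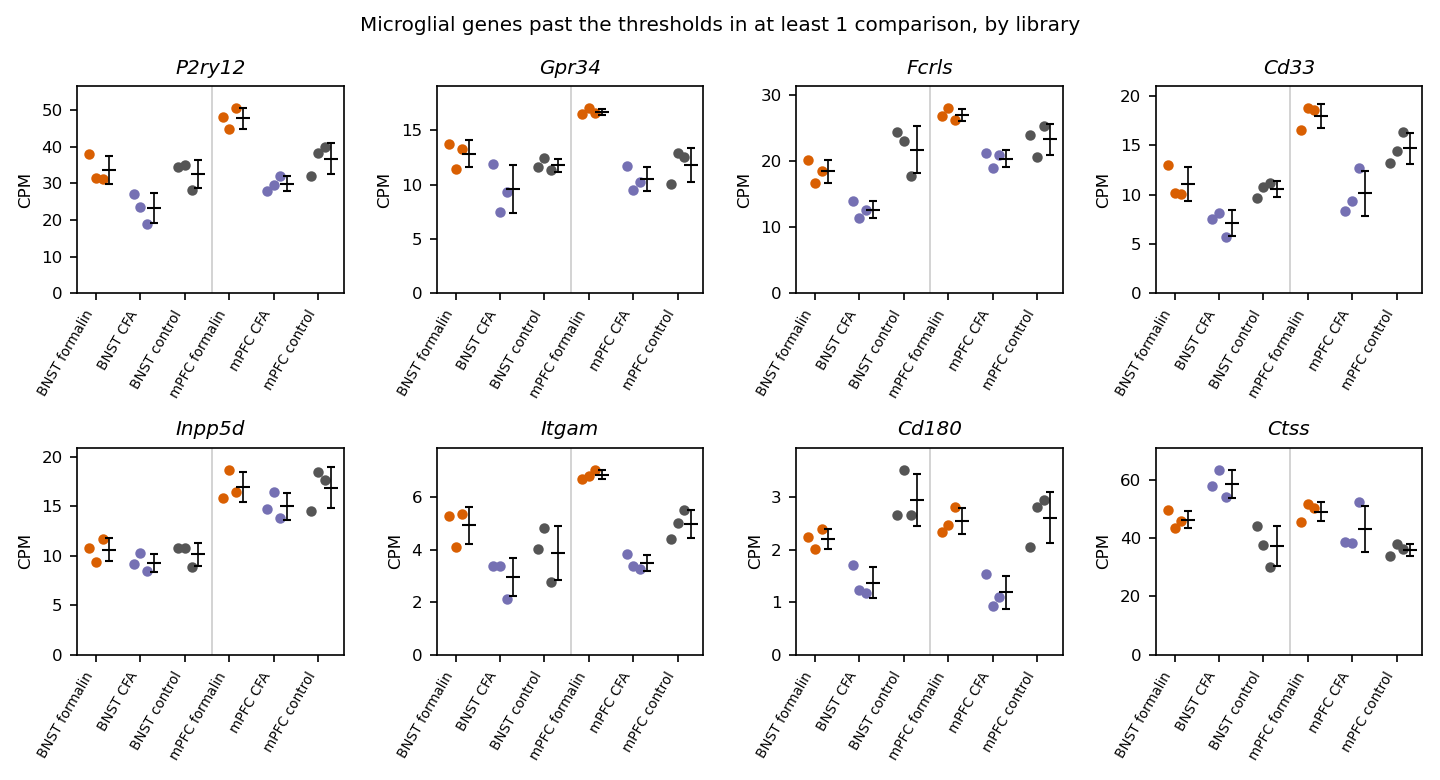
CPM by library of the 8 microglial genes that passed in at least 1 comparison, with 3 points per group and the mean with its SD beside them. In both regions the 3 CFA libraries of P2ry12, Cd33, Itgam and Cd180 lie below the 3 formalin libraries, whereas the 3 BNST CFA libraries of Ctss lie above all other BNST libraries.

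Among the homeostatic surface and secreted genes, Fcrls alone passed. Fcrls encodes an Fc receptor-like scavenger receptor that in the mouse brain is a microglial marker. It had 20.2, 16.7 and 18.5 CPM in BNST formalin libraries, 14.1, 11.4 and 12.6 CPM in BNST CFA libraries and 24.5, 23.1 and 17.8 CPM in BNST control libraries. Every CFA library lay below all formalin and all control libraries, with a log2 fold change of −0.78 ± 0.12 (SE, adjusted p = 0.000273) against controls, while formalin exceeded CFA by 0.54 ± 0.12 (SE, adjusted p = 0.00761). In the mPFC, Fcrls had 26.9, 28.05 and 26.2 CPM after formalin, 21.3, 18.99 and 20.99 CPM after CFA and 24.1, 20.7 and 25.3 CPM in controls, and CFA against control was −0.19 ± 0.12 (SE, adjusted p = 0.524). The difference between the regions in this change was −0.59 ± 0.17 (SE, adjusted p = 0.0573), which did not pass in edgeR, whereas Fcrls passed by DESeq2.

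Siglech, a sialic-acid-binding lectin that pairs with TYROBP, had negative fold changes after CFA but did not pass. In CFA over control it stood at −0.42 ± 0.14 (SE, adjusted p = 0.0439) in the BNST and −0.42 ± 0.14 (SE, adjusted p = 0.196) in the mPFC, below the minimum fold change in both, and the CFA and control libraries did not overlap in either region. Olfml3, a secreted glycoprotein, was at −0.24 in the BNST and −0.25 in the mPFC. Entpd1 (CD39), which breaks down extracellular ATP, was at −0.33 and 0.10, and the fructose transporter Slc2a5 at −0.15 and 0.31. Not all homeostatic markers followed this direction: Tmem119 was at 0.22 and 0.21, and Selplg, a ligand of selectins, at 0.04 and 0.08. None of these 6 passed.

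Csf1r, the growth factor receptor that microglia depend on, had 96.3, 90.1 and 102 CPM in BNST formalin libraries, 87.02, 81.05 and 71.5 CPM in BNST CFA libraries and 106, 93.9 and 82.2 CPM in BNST control libraries. In the mPFC it had 118, 126 and 133 CPM after formalin, 105, 103 and 99.5 CPM after CFA and 101, 113 and 122 CPM in controls. In both regions the formalin libraries lay above the CFA libraries, by 0.27 ± 0.10 and 0.29 ± 0.10, and the control libraries overlapped with both groups in each region. Csf3r, the receptor for G-CSF, ranged from −0.11 to 0.19 over the 6 treatment comparisons. Neither gene passed in any of them.

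The transcription factors that set microglial identity did not pass either. Sall1, a zinc finger factor that in the brain is restricted largely to microglia among myeloid cells but is also found in other glia, had the highest level of the group. It had 35.1, 38.2 and 35.1 CPM in BNST formalin libraries, 35.7, 35.3 and 31.8 CPM in BNST CFA libraries and 32.3, 22.2 and 35.1 CPM in BNST control libraries. It had 24.5, 26.6 and 24.8 CPM in mPFC formalin libraries, 26.3, 24.1 and 27.3 CPM in mPFC CFA libraries and 21.6, 25.6 and 29.9 CPM in mPFC control libraries. The BNST formalin libraries lay just above the highest control library, by 0.28 ± 0.13 (SE, adjusted p = 0.269), and the mPFC groups overlapped. Spi1, which encodes PU.1, Irf8 and Ikzf1 (Ikaros) lay between −0.16 and 0.22 on the log2 scale in all 6 treatment comparisons. Even a change of the minimum size would be hard to see for Spi1, which was at 0.04 ± 0.26 (SE) in CFA over control in the BNST.

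The C1q genes, whose 3 chains start the classical complement cascade, had positive fold changes after CFA in both regions but none passed. C1qa had 29.2, 28.1 and 29.8 CPM in BNST formalin libraries, 38.1, 32.9 and 33.5 CPM in BNST CFA libraries and 34.3, 27.5 and 22.3 CPM in BNST control libraries. It had 33.9, 35.1 and 38.7 CPM in mPFC formalin libraries, 35.5, 36.5 and 37.5 CPM in mPFC CFA libraries and 23.1, 29.3 and 30.9 CPM in mPFC control libraries. The mPFC libraries of both pain models lay above all mPFC controls, by 0.37 ± 0.13 (SE, adjusted p = 0.191) after formalin and 0.39 ± 0.13 (SE, adjusted p = 0.165) after CFA. C1qb was at 0.23 in the BNST and 0.34 in the mPFC in CFA over control, and C1qc at 0.22 and 0.05.

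Among the adaptors, Fc receptors and inhibitory genes, only Cd33, Itgam and Inpp5d passed in any comparison, and the adaptors and Fc receptors had positive fold changes after CFA. Tyrobp, the adaptor that carries an activating motif for TREM2, SIGLECH and other receptors, had 5.83, 4.28 and 5.103 CPM in BNST formalin libraries, 7.505, 5.67 and 5.63 CPM in BNST CFA libraries and 6.37, 3.402 and 2.91 CPM in BNST control libraries. It had 5.9, 5.71 and 7.94 CPM in mPFC formalin libraries, 5.97, 5.29 and 4.38 CPM in mPFC CFA libraries and 4.15, 4.296 and 5.01 CPM in mPFC control libraries. The estimates were 0.57 ± 0.24 (SE, adjusted p = 0.102) for CFA over control in the BNST and 0.53 ± 0.24 (SE, adjusted p = 0.3297) for formalin over control in the mPFC, where the groups did not overlap. Fcgr3, an activating Fc gamma receptor, was at 0.43 ± 0.16 (SE, adjusted p = 0.0606) in the BNST and 0.35 ± 0.16 (SE, adjusted p = 0.349) in the mPFC in CFA over control, and the common Fc receptor chain Fcer1g at 0.18 and 0.22. Ptprc, the phosphatase CD45, was at −0.03 and −0.18. In formalin over control in the mPFC, all 7 tested genes of this group had positive fold changes, where 49.05% of all genes did. For 5 of them the formalin libraries lay above all controls, against 13% of all genes, and none passed. Fcgr3 was among these, at a mean of 11.4 against 8.23 CPM.

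Cd33, a sialic-acid-binding lectin that is inhibitory in human, fell after CFA. It had 13.02, 10.2 and 10.04 CPM in BNST formalin libraries, 7.505, 8.18 and 5.68 CPM in BNST CFA libraries and 9.64, 10.8 and 11.2 CPM in BNST control libraries. It had 16.6, 18.8 and 18.6 CPM in mPFC formalin libraries, 8.39, 9.33 and 12.7 CPM in mPFC CFA libraries and 13.2, 14.5 and 16.4 CPM in mPFC control libraries. In both regions the CFA libraries lay below all formalin and all control libraries. Against controls the change was −0.57 ± 0.17 (SE, adjusted p = 0.0212) in the BNST, which passed, and −0.53 ± 0.16 (SE, adjusted p = 0.144) in the mPFC, which did not, and formalin exceeded CFA by 0.64 ± 0.17 (SE, adjusted p = 0.0166) and 0.82 ± 0.16 (SE, adjusted p = 0.0168). The BNST minus mPFC difference of its change after CFA was −0.03 ± 0.23, so the regions were not shown to differ.

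Itgam encodes CD11b, the alpha chain of complement receptor 3, and had the largest differences between the pain models that passed in both regions. It had 5.303, 4.12 and 5.36 CPM in BNST formalin libraries, 3.37, 3.4 and 2.11 CPM in BNST CFA libraries and 4.02, 4.82 and 2.79 CPM in BNST control libraries. It had 6.71, 6.81 and 7.05 CPM in mPFC formalin libraries, 3.84, 3.37 and 3.28 CPM in mPFC CFA libraries and 4.41, 5.04 and 5.505 CPM in mPFC control libraries. Formalin exceeded CFA by 0.74 ± 0.21 (SE, adjusted p = 0.0258) in the BNST and 0.97 ± 0.21 (SE, adjusted p = 0.0268) in the mPFC. In the mPFC the controls lay between both groups without overlap, at 0.46 for formalin over control and −0.51 for CFA over control, and neither step passed alone.

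P2ry12, Cd33 and Itgam are the genes that passed between the pain models in both regions. Ctss did not pass between them but rose in the BNST in CFA over control, so the starts of these 4 genes are shown. Each window holds 250 bases before the start and 50 after it, from RefSeq on GRCm38.p6, and 30 of the 38 microglial genes had such a window. The window of Cd33 lies inside its GENCODE span, chr7:43524216-43544428. That of P2ry12 lies wholly upstream of its GENCODE span, chr3:59216272-59262871. Capitals mark the letters GAGGAA, or TTCCTC where the match is on the other strand, the core recognised by PU.1, the factor that Spi1 encodes.
P2ry12 at chr3:59262936-59263235, reverse strand: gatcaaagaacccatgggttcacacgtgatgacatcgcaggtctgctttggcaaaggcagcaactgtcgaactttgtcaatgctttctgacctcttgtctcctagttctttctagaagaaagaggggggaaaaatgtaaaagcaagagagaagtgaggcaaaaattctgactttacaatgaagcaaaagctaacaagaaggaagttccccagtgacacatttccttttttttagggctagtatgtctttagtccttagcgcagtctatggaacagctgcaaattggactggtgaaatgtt
Cd33 at chr7:43533122-43533421, reverse strand: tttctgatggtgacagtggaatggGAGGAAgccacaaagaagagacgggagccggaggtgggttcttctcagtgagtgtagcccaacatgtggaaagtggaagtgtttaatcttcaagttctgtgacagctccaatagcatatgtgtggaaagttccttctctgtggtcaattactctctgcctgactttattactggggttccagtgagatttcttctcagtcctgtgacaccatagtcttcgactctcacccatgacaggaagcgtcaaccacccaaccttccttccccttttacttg
Itgam at chr7:128062390-128062689, forward strand: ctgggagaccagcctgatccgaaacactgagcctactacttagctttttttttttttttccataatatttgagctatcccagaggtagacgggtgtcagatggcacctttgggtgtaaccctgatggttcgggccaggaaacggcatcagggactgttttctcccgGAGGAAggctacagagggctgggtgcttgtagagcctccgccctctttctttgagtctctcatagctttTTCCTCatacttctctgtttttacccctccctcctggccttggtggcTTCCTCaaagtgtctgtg
Ctss at chr3:95526536-95526835, forward strand: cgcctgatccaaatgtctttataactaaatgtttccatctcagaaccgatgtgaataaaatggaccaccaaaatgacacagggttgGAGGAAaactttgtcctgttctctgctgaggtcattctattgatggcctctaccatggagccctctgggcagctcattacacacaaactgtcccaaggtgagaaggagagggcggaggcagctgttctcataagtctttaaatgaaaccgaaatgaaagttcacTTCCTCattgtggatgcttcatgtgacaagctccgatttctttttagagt
The core is found 3 times in the window of Itgam, 2 times in that of Ctss, once in that of Cd33 and not in that of P2ry12. Over the 38 windows of the microglial genes 20 held it on either strand, 52.6%, and of all 32851 windows 28.3%. A match is a stretch of letters and not a measured site.

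Cd180 fell after CFA in both regions, with the lowest fold change of the 37 genes in each. CD180 is a leucine-rich relative of the Toll-like receptors that is held at the surface by LY86 and in the mouse tunes TLR4 signalling. Cd180 had 2.24, 2.01 and 2.38 CPM in BNST formalin libraries, 1.71, 1.23 and 1.17 CPM in BNST CFA libraries and 2.66, 3.52 and 2.66 CPM in BNST control libraries. It had 2.34, 2.47 and 2.81 CPM in mPFC formalin libraries, 1.54, 0.926 and 1.09 CPM in mPFC CFA libraries and 2.05, 2.81 and 2.94 CPM in mPFC control libraries. The CFA libraries lay below all others in each region, with log2 fold changes of −1.11 ± 0.24 (SE, adjusted p = 0.00301) against BNST controls and −1.12 ± 0.24 (SE, adjusted p = 0.0398) against mPFC controls. Formalin exceeded CFA by 1.08 ± 0.25 (SE, adjusted p = 0.0308) in the mPFC. In the BNST formalin exceeded CFA by 0.69, which did not pass. The BNST formalin libraries also lay below all BNST controls, at −0.41, without passing. Counts of Cd180 were low, 14 in the lowest library. The overlapping gene Mast4 was at 0.35 ± 0.07 (SE) in CFA over control in the BNST, opposite in sign to Cd180, and 0.03 ± 0.07 in the mPFC.

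Ly86, the partner of CD180, had 8.07, 6.396 and 8.68 CPM in BNST formalin libraries, 6.73, 6.602 and 4.79 CPM in BNST CFA libraries and 7.85, 5.27 and 6.01 CPM in BNST control libraries. It had 7.52, 4.61 and 7.39 CPM in mPFC formalin libraries, 4.196, 3.705 and 4.57 CPM in mPFC CFA libraries and 5.25, 4.99 and 6.59 CPM in mPFC control libraries. Its CFA libraries were the lowest in the mPFC, at −0.43 ± 0.22 (SE, adjusted p = 0.402) against controls, and overlapped with controls in the BNST. Tlr7, an endosomal sensor of single-stranded RNA, was at 0.52 ± 0.20 (SE, adjusted p = 0.0686) in the BNST and 0.76 ± 0.20 (SE, adjusted p = 0.0847) in the mPFC in CFA over control. The mPFC value passed by DESeq2 but not by edgeR. The mPFC formalin libraries of Tlr7 also lay above all mPFC controls, at 0.54, without passing. Tlr2, a surface sensor of bacterial lipoproteins, had 2.42, 2.93 and 4.25 CPM in BNST formalin libraries, 1.77, 6.41 and 1.41 CPM in BNST CFA libraries and 1.36, 2.27 and 0.557 CPM in BNST control libraries. The 4 BNST libraries highest in Tlr2 were also the 4 highest in choroid plexus markers. The part of that tissue in the level of Tlr2 was not tested, and Tlr2 did not pass, at 1.18 ± 0.51 (SE, adjusted p = 0.102) after CFA and 1.19 ± 0.51 (SE, adjusted p = 0.209) after formalin.

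Of the lysosomal and membrane genes, Ctss rose in the BNST after CFA. Cathepsin S is a protease of lysosomes that microglia also release, where it can cut fractalkine from neurons. Ctss had 49.5, 43.5 and 45.9 CPM in BNST formalin libraries, 57.9, 63.4 and 53.9 CPM in BNST CFA libraries and 43.9, 37.7 and 30.03 CPM in BNST control libraries. Every CFA library lay above all formalin and all control libraries, by 0.65 ± 0.13 (SE, adjusted p = 0.00169) against controls. It had 45.4, 51.5 and 50.3 CPM in mPFC formalin libraries, 38.7, 38.2 and 52.2 CPM in mPFC CFA libraries and 33.7, 37.9 and 36.4 CPM in mPFC control libraries. Both mPFC pain groups lay above all controls, by 0.45 ± 0.13 (SE, adjusted p = 0.113) after formalin and 0.26 ± 0.13 (SE, adjusted p = 0.396) after CFA, without passing. The other genes of the group did not pass: in CFA over control Cd68, a lysosomal glycoprotein, was at −0.41 in the BNST and 0.03 in the mPFC, the lysosomal membrane protein Laptm5 at −0.14 and −0.08, the tetraspanin Cd53 at 0.13 and −0.05, and Aif1 (IBA1) at 0.02 and 0.11.

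Over the whole list, the fold changes after CFA went both ways. In the BNST, 16 of 37 were higher and 21 lower than in controls by sign, with a median of −0.08, against 0.01 over all genes, and quartiles of −0.30 and 0.22. The groups did not overlap for 3 genes that were higher, against 15.4% of all genes, and 7 that were lower, against 16.1%. In the mPFC, again 16 were higher and 21 lower by sign, with a median of −0.01, and 7 were higher and 7 lower without overlap, against 13.4% and 12.3% of all genes. Formalin lay above CFA without overlap for 10 of 37 genes in the BNST, against 14.3% of all genes, and for 15 of 37 in the mPFC, against 13.7%. The genes are not independent of one another.

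The calls between the pain models rested on few libraries. In the BNST, 0 of 37 genes passed without formalin replicate 1, the library from lane 3 and the highest in erythroid markers, 1 passed without CFA replicate 3, and the 9 BNST libraries fitted alone gave 0. In the mPFC the count was 0 when formalin replicate 3 or either of CFA replicates 1 and 2 was left out, 1 without formalin replicate 1 or 2, and 2 without CFA replicate 3. Cd180 in the mPFC after CFA was lost when any 1 of 10 libraries was left out. In the BNST after CFA, 8 genes passed without control replicate 1, and the calls of Ctss, Fcrls and Cd180 held without any single library, while that of Cd33 was lost without control replicate 3, without CFA replicate 3 and in the 9 BNST libraries fitted alone. With the lane 2 libraries alone, which leaves control replicate 3 as the only BNST control, 10 genes passed, 8 of them higher, and Fcrls was at −0.50, adjusted p = 0.0226, just under the minimum fold change. Without CFA replicate 2, the library highest in choroid plexus markers, Ctss was at 0.59, adjusted p = 0.00696, Fcrls at −0.71, adjusted p = 0.00128 and Cd180 at −1.04, adjusted p = 0.0127.

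Few of these genes differed between the regions. In control mice, 1 of 37 passed between BNST and mPFC, where 26.6% of all genes passed. Inpp5d, the inositol phosphatase SHIP1 that damps signalling from such receptors, had 10.8, 10.8 and 8.85 CPM in BNST control libraries and 14.6, 18.5 and 17.7 CPM in mPFC control libraries. It was lower in the BNST without overlap, with a log2 fold change of −0.73 ± 0.13 (SE, adjusted p = 0.000209) for BNST over mPFC, and the call held without any single library and with the animal number as a block. It had 10.8, 9.38 and 11.7 CPM after formalin and 9.16, 10.3 and 8.498 CPM after CFA in the BNST, and 15.9, 18.7 and 16.4 CPM and 14.8, 16.5 and 13.8 CPM in the mPFC, so every BNST library lay below every mPFC library. Cd33 was at −0.48 ± 0.16 (SE, adjusted p = 0.0262) and Laptm5 at −0.33 ± 0.11 (SE, adjusted p = 0.0229), also without overlap, and Csf1r at −0.25 ± 0.10 (SE, adjusted p = 0.0436), each under the minimum fold change. By sign, 26 of 37 were lower in the BNST, with a median of −0.10, against 0.04 over all genes.

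No gene of the 37 passed for a difference between the regions in any treatment change by edgeR, where 0.158% of all genes passed for formalin over control, 4.17% for CFA over control and 4.17% for formalin over CFA. An unadjusted p under 0.05 was reached by 1, 3 and 3 of the 37 in the same order, against 14.6%, 19.4% and 22.6% of all genes. DESeq2 gave 0, 1 (Fcrls) and 0. The lowest adjusted p by edgeR were those of Fcrls, 0.235 for formalin over control and 0.0573 for CFA over control, and of Ctss, 0.0919 for formalin over CFA.

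Genes around these pathways were read from further lists. Of 10 ligands, receptors and signal carriers tested from the CSF1R, TGF-beta, fractalkine and CD200 systems, 1 was higher and 3 were lower in the BNST after CFA, where 11.9% of all genes passed. Il34, the neuronal ligand of CSF1R, had 16.4 ± 1.06 CPM in BNST CFA libraries and 27.9 ± 6.28 CPM in BNST control libraries (SD, n = 3 each), a change of −0.77 ± 0.16 (SE, adjusted p = 0.00224). Cx3cl1, fractalkine itself, was at −0.56 ± 0.11 (SE, adjusted p = 0.00135) and Smad3, which carries TGF-beta signals, at −0.61 ± 0.10 (SE, adjusted p = 0.000552), while the receptor Tgfbr2 rose by 0.74 ± 0.18 (SE, adjusted p = 0.00681) and, after formalin, by 0.83 ± 0.18 (SE, adjusted p = 0.0486). Striatal neuron markers fell in the same comparison, 6 of 6, and habenula markers rose, 5 of 6, and the part of the dissection in these neuronal genes was not tested. Without CFA replicate 2, 2 of the 10 passed, both lower, and the call of Tgfbr2 after formalin was lost when any 1 of 15 libraries was left out. In the mPFC none of the 10 passed after CFA or formalin by edgeR. An unadjusted p under 0.05 was reached by 1 of the 10 after formalin, against 14.1% of all genes, and by 1 after CFA, against 2614 of 18994 genes. In the BNST minus mPFC difference of CFA over control, 1 of the 10 was higher and 3 lower, where 4.17% of all genes passed. Smad3 was at −0.71 ± 0.14 (SE, adjusted p = 0.00731), which held without any single library. Il34 was at −0.91, Cx3cl1 at −0.57 and Tgfbr2 at 0.94. These calls were lost when any 1 of 4, 8 and 15 libraries, in this order, was left out. For formalin over CFA the difference of Cd200 alone passed, at −0.64 ± 0.14 (SE, adjusted p = 0.0154), where 4.17% did.

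Of 18 tested genes of disease-associated microglia, 9 were higher and 1 lower in the BNST after CFA, where 11.9% of all genes passed. Those with the largest fold changes were Gpnmb at 1.67 ± 0.47 (SE, adjusted p = 0.0183), Spp1 at 1.26 ± 0.19 (SE, adjusted p = 0.000237), Cd63 at 1.11 ± 0.33 (SE, adjusted p = 0.0261) and, lower, the lipase Lpl at −1.88 ± 0.35 (SE, adjusted p = 0.00189). Many of these genes are expressed by other cells too, and only 2 passed without CFA replicate 2, the library with the most choroid plexus markers, 1 higher and 1 lower, and 6 without control replicate 3. The part of the choroid plexus in these values was not tested. The call of Spp1 (osteopontin) held without any single library. It had 18.4 ± 4.32 CPM in BNST CFA libraries and 7.66 ± 2.04 CPM in BNST control libraries, and 6.61 ± 0.797 CPM in mPFC CFA libraries and 3.304 ± 0.642 CPM in mPFC control libraries, where it was the single gene of the list to pass, at 0.996 ± 0.21 (SE, adjusted p = 0.0321), and it was lost there when any 1 of the 6 libraries compared was left out. None of the 18 passed after formalin in either region by edgeR, with 8 in the BNST, against 19.6% of all genes, and 4 in the mPFC, against 14.1%, at an unadjusted p under 0.05.

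Of 11 tested genes of complement and phagocytosis, C5ar1 and C3 were higher in the BNST after CFA, at 1.49 ± 0.44 (SE, adjusted p = 0.0205) and 1.32 ± 0.40 (SE, adjusted p = 0.0276), where 11.9% of all genes passed, and both calls were lost without CFA replicate 2 and without control replicate 2 or 3. Of 12 tested inflammatory mediators, Nfkbia, the feedback inhibitor of NF-kappa-B that most cell types express, rose by 1.15 ± 0.16 (SE, adjusted p = 9.58e-05) in the same comparison. The other 11 did not pass there, and in the mPFC none of the 12 passed after CFA or formalin by edgeR, with 2 at an unadjusted p under 0.05 after formalin, against 14.1% of all genes, and 2 after CFA, against 2614 of 18994 genes. Of 28 other microglia-enriched genes, 3 passed in CFA over control in the BNST, a share near the 11.9% of all genes. Itgb5 was higher in the BNST after CFA at 0.58 ± 0.15 (SE, adjusted p = 0.0103), and Hpgds and Upk1b were lower at −0.55 ± 0.15 (SE, adjusted p = 0.0125) and −1.59 ± 0.56 (SE, adjusted p = 0.0486). The call of Itgb5 was lost without control replicate 3 or CFA replicate 2, where it was at 0.34, adjusted p = 0.0434, that of Hpgds without control replicate 1, and that of Upk1b when any 1 of 14 libraries was left out. Of 15 genes of TYROBP and Fc receptor signalling, 1 passed in the same comparison, where 11.9% of all genes did. Btk was lower there at −1.25 ± 0.39 (SE, adjusted p = 0.0296), which was lost without control replicate 1 or CFA replicate 1 or 3. In the mPFC, where 0.932% of all genes passed, Dok3 alone of the 15 was lower after formalin than after CFA. It was at −0.99 ± 0.18 (SE, adjusted p = 0.00832), which was lost without formalin replicate 3 or CFA replicate 1. The BNST minus mPFC difference of Dok3 passed for formalin over CFA, at 1.11 ± 0.25 (SE, adjusted p = 0.0159), where 4.17% of all genes passed. That call held without any single library. For CFA over control, where 4.17% passed too, the difference passed for Dok3 at −0.89, Lpl at −1.92 and Pros1 at 0.59. These calls were lost when any 1 of 15, 10 and 9 libraries, in this order, was left out.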

How the data were processed

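RNA was measured in 18 libraries of BNST and prelimbic mPFC. The authors trimmed reads with Trimmomatic 0.39, aligned them to GRCm38 (mm10) with HISAT2 2.2.1 and used featureCounts 2.0.1 for gene counts, which the deposited table holds raw. The strand setting and the annotation release are not given in the sources used here. Symbols, positions and exon lengths came from GENCODE M21, and 260 of 55401 identifiers had no symbol.

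Counts were tested in R 4.3.3 with edgeR 4.0.16. The filter filterByExpr (minimum count 10, minimum total 15) kept 18994 genes. The quasi-likelihood model used TMM factors, robust estimates and 6 groups, with 12 residual degrees of freedom and Benjamini-Hochberg adjustment over all genes. Each treatment pair was tested within a region, the regions in controls, and the region differences as interactions. All 38 genes are accounted for, and values per library are given for genes that passed and for the gene of highest TPM in each role. From further lists, up to 4 passing genes per comparison are named. The members and lists were chosen with earlier results of these data known.

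Libraries of 14781315 to 23408503 counts set the precision. On simulated data with the fitted spread, 100 genes per region were changed by 0.75 and 100 by 1, among 18994 genes. Of those changed by 0.75, edgeR recovered 47% in CFA over control in the BNST and 39% in the mPFC. In the data, 4310 and 157 genes had an adjusted p under 0.05 in these comparisons by edgeR. The simulated shares therefore need not hold for the data, above all in the BNST. Alternatives were DESeq2 1.42.0, RLE normalization, other filters, no minimum fold change, lane 2 libraries, the libraries of 1 region, replicate and animal blocks, and each library left out. Lanes and the numbers read as animal numbers came from supplementary column names, joined by equal counts. The authors' tables of comparisons were not used.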

Additional observations from a re-analysis of the deposited data

How the results depend on the processing

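None of the 68 single-gene calls that were rerun under the alternatives reversed in sign. They had passed in these same libraries, so a reversal was unlikely from the start. Most of these calls were lost in at least 1 alternative, and genes named without passing were not rerun. DESeq2 gave 2 passing microglial genes for CFA over control in the mPFC and 1 for the region difference of CFA over control, where the stricter filter also gave 1, and 6 for formalin over CFA in the mPFC, against 5 by edgeR, with P2ry13 added. Without a filter on low counts, 0 passed for CFA over control in the mPFC. Without a minimum fold change, 4 passed between the regions in controls. With lane 2 libraries alone, where the lone BNST control library is assumed to vary like the others, counts were 1 for formalin over control, 10 for CFA over control and 2 for formalin over CFA in the BNST, 2 for CFA over control in the mPFC, 6 between the regions, and 2 and 1 for the region differences of CFA over control and formalin over CFA. With the 9 libraries of the region, 0 passed for formalin over CFA in the BNST and 3 for CFA over control in the mPFC. The replicate block gave 0 for CFA over control and 3 for formalin over CFA in the mPFC. The number was not taken as a pair, since residuals of libraries sharing it in a region correlated at −0.19 to 0.31, above 0.1 in 4 of 18 pairs. For libraries of the 2 regions sharing an animal number, residuals correlated at −0.03 to 0.17, above 0.1 in 2 of 8 pairs. These values do not settle whether the number marks a mouse. With the animal number as a replicate block, 3 passed between the regions. The cause of these shifts was not tested.

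Leaving out each library in turn gave 4 to 8 passing genes for CFA over control, 0 to 6 for formalin over CFA and 0 to 1 for formalin over control in the BNST. It gave 0 to 2 for CFA over control and 0 to 6 for formalin over CFA in the mPFC, 1 to 3 between the regions, and 0 to 1 for the region differences of CFA over control and formalin over CFA. Among the lists in BNST CFA over control, chosen after seeing the data, it gave 2 to 12 disease-associated genes, 0 to 4 complement genes and 2 to 4 genes of the CSF1R, TGF-beta and fractalkine systems.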
